A study of Mus musculus with 20 samples.

Results

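The mevalonate pathway, the steps from squalene to cholesterol, the genes that sense and carry sterols, and the enzymes of fatty acid synthesis, elongation and desaturation were followed in hearts and femur skeletal muscle of wild-type (WT) mice and of mice with a knockdown of tafazzin (Taz-KD). The members were 33 genes, listed by symbol and matched by their Ensembl IDs to the GENCODE annotation of GRCm38. All 33 were present among the 47069 genes counted in heart and the 53801 genes counted in muscle. They comprised 18 genes of the mevalonate and sterol branch, 9 genes of the lipogenic branch and 6 genes of sterol sensing and transport. Taz encodes tafazzin, the mitochondrial transacylase that remodels cardiolipin. RNA was sequenced from 20 mice at 20 weeks of age, 5 WT and 5 Taz-KD for heart and 5 WT and 5 Taz-KD for muscle, with different mice for each tissue. Taz-KD mice carried the ROSA26H1/tetO-shRNA:TAZ transgene, a hairpin RNA under a doxycycline-dependent H1 promoter that is not limited to one cell type. WT mice were C57BL/6N and lacked the transgene, and the background strain of the Taz-KD mice is not given in the sources used here. Doxycycline was fed in the chow (625 mg/kg) to WT and Taz-KD mice alike. The comparison asks whether loss of tafazzin changes the transcripts of these pathways in each tissue.

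Sterol synthesis starts from acetyl-CoA, runs through mevalonate to farnesyl diphosphate, and then through squalene and lanosterol to cholesterol. Fatty acid synthesis starts from the same acetyl-CoA, which acetyl-CoA carboxylase turns into malonyl-CoA and fatty acid synthase into palmitate, before elongases and desaturases lengthen the chain and add double bonds. Both branches are controlled by the sterol regulatory element-binding proteins (SREBPs), membrane-bound transcription factors that the escort protein SCAP carries from the endoplasmic reticulum to the Golgi when sterols are low and that the INSIG proteins hold back when sterols are high. In the adult heart and in muscle fibres most fatty acids are taken up from blood, and the lipogenic enzymes are known mainly from liver and adipose tissue.

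Total counts ran from 26963288 to 35301909 per library in heart and from 36429399 to 74361382 in muscle. Levels are given as CPM, a gene's counts per 1000000 of the library total after TMM scaling. Taz, the gene targeted by the hairpin, measured 37.8 ± 1.40 CPM (SD, n = 5) in WT hearts and 11.7 ± 0.731 in Taz-KD hearts, and 51.7 ± 3.42 in WT muscle and 13.4 ± 1.05 in Taz-KD muscle. The genotypes did not overlap in either tissue (exact two-sided permutation p = 0.00794 in each, the smallest that 5 against 5 libraries can give). A gene was called when its adjusted p in edgeR's quasi-likelihood test was under 0.05. In heart 4803 of 19486 genes were called, 24.6% of those tested (14.4% higher and 10.3% lower in Taz-KD). In muscle 3 of 16145 genes were called, 0.0186%, and these were Taz, Mthfd2 and Setd5, while 2408 genes had an unadjusted p under 0.05 and DESeq2 called 160. Cardiomyocyte Myh6 ran from 23143 to 34092 CPM in hearts and was at most 30.1 CPM in muscle, and fast-fibre Myh4 ran from 6403 to 86312 CPM in muscle and was at 0 in all hearts, so each tissue held the defining transcripts of its label.

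In Taz-KD hearts 4 of the 33 members were higher than in WT and none was lower by this test. They were Scap and 3 enzymes of the sterol steps, Cyp51, Msmo1 and Ebp, with rises of 1.20-fold to 1.44-fold. This was 12.1% of the members, below the 24.6% of all genes called in heart. DESeq2 called 6 members and 5268 of the 32867 genes with any count in heart. Limma-voom called 5 members and 4742 of 19486 genes. The median log2 fold change of the 33 members was 0.18, beside -0.02 for all genes tested.

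**Figure D1:**
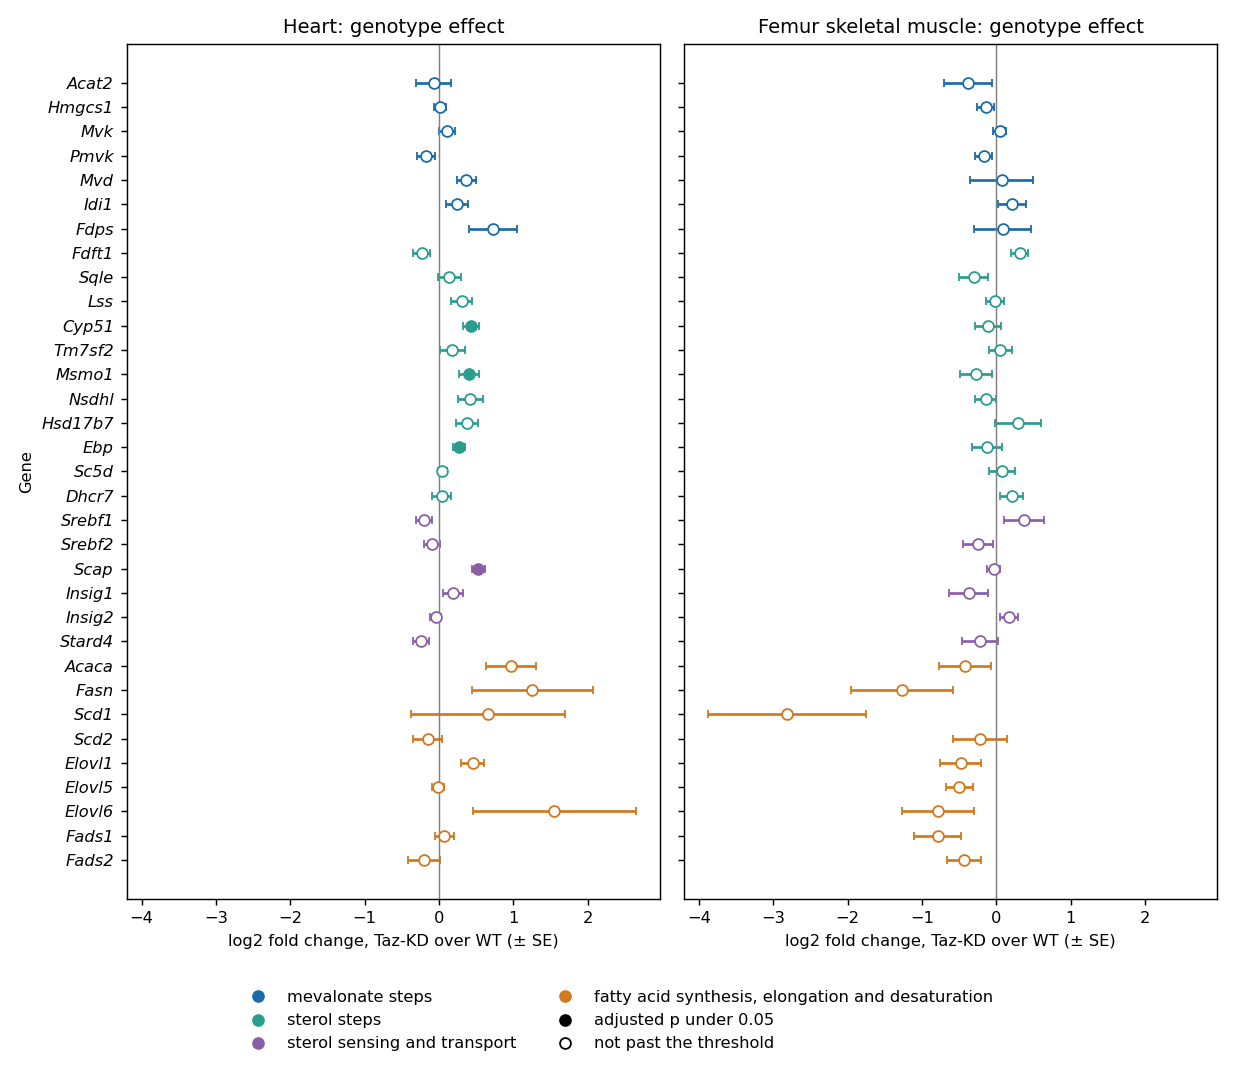
Log2 fold change of Taz-KD over WT with its standard error for each of the 33 members in heart and in skeletal muscle, by edgeR, with colours for the groups of genes and filled points for adjusted p under 0.05. The 4 filled points, Cyp51, Msmo1, Ebp and Scap, are all in heart and above 0, the wide intervals belong to Fasn, Scd1 and Elovl6, and in muscle all 9 fatty acid members lie below 0 without being called.

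Scap, the SREBP escort protein (ENSMUSG00000032485, chromosome 9, 110333288 to 110384950, plus strand), had the smallest adjusted p of the members. The WT hearts measured 40.8, 31.7, 39.7, 38.8 and 36.3 CPM, and the Taz-KD hearts 50.6, 59.6, 59.1, 54.9 and 46.3 CPM. Every Taz-KD heart lay above every WT heart. The mean rose from 37.5 ± 3.62 to 54.1 ± 5.67 CPM (SD, n = 5), a log2 fold change of 0.53 (SE 0.09, adjusted p = 0.000841). It was called under all 19 alternatives tried in heart. The exons of Scap share 985 bases with those of 5830462I19Rik on the opposite strand, and that gene also rose, from 9.19 ± 1.09 to 12.6 ± 1.85 CPM (log2 fold change 0.46, adjusted p = 0.0119). Whether the counting used the strand is not given in the sources used here, so reads over the shared bases cannot be told apart.

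Cyp51 (ENSMUSG00000001467, chromosome 5, 4081145 to 4104746, minus strand) encodes the lanosterol demethylase. In WT hearts it measured 10.8, 14.8, 10.8, 12.4 and 10.4 CPM, and in Taz-KD hearts 18.9, 15.03, 14.9, 14.3 and 16.5 CPM. One WT heart, R1791, lay within the Taz-KD range, and the others lay below it. The mean rose from 11.8 ± 1.82 to 16.0 ± 1.85 CPM, a log2 fold change of 0.43 (SE 0.11, adjusted p = 0.0131), and the call held when each heart was left out in turn. In one fit of all 20 libraries, and without R2 and R3 together, its adjusted p was 0.0658. Exons of Cyp51 share 166 bases with those of Akap9 on the opposite strand, where reads cannot be told apart either. Akap9 measured 153 ± 13.6 CPM in WT and 161 ± 18.9 in Taz-KD hearts (adjusted p = 0.571 by edgeR).

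Msmo1 (ENSMUSG00000031604, chromosome 8, 64718139 to 64733792, minus strand) encodes the methylsterol monooxygenase that acts after Cyp51. The WT hearts measured 5.73, 4.51, 4.17, 5.22 and 5.55 CPM and the Taz-KD hearts 6.16, 7.02, 8.28, 5.62 and 6.20 CPM. The lowest Taz-KD heart lay below the highest WT heart. The log2 fold change was 0.40 (SE 0.13, adjusted p = 0.0388), from 5.04 ± 0.672 to 6.66 ± 1.04 CPM. The call was lost when any of R1791, R1792, R1795, R2, R1793 or R1796 was left out, with adjusted p between 0.0506 and 0.0975.

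Ebp (ENSMUSG00000031168, chromosome X, 8185329 to 8193512, minus strand) encodes the sterol isomerase further along the same route. WT hearts measured 6.41, 6.84, 7.20, 6.90 and 7.25 CPM, and Taz-KD hearts 9.14, 7.76, 8.19, 8.73 and 7.87 CPM. The groups did not overlap. The mean rose from 6.92 ± 0.339 to 8.34 ± 0.586 CPM, a log2 fold change of 0.27 (SE 0.08, adjusted p = 0.0300), and the call was lost without R3, R1791, R1795, R2, R1796 or R1797, with adjusted p from 0.0503 to 0.0777. With Scap and Mvd, Ebp was 1 of 3 members whose genotypes did not overlap in heart, where 18.3% of all genes tested did not.

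**Figure D2:**
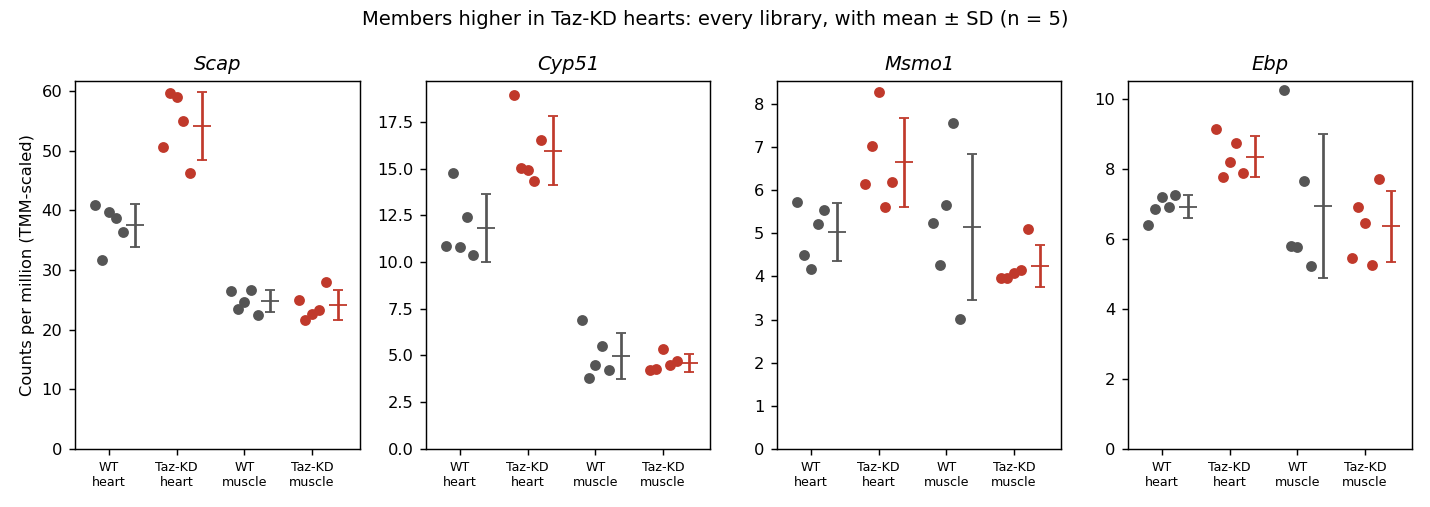
TMM-scaled CPM of Scap, Cyp51, Msmo1 and Ebp in every library of heart and skeletal muscle, with the mean and SD of each group of 5 beside its points. In heart the Taz-KD means stand above the WT means for all 4 genes, whereas in muscle the groups overlap for each of them, with mean Scap levels of 24.7 and 24.1 CPM.

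The promoters of the 4 called genes are shown with that of Fasn, to compare sterol genes with the central lipogenic gene. Each is the stretch from 250 bases before to 50 bases after the start site in RefSeq on GRCm38.p6, and capitals mark every match on either strand of TCACNCCA (the core of a sterol regulatory element), CCAAT (bound by NF-Y), CACGTG (an E-box) or GGGCGG (bound by Sp1).
Cyp51, chr5:4104648-4104947, minus strand: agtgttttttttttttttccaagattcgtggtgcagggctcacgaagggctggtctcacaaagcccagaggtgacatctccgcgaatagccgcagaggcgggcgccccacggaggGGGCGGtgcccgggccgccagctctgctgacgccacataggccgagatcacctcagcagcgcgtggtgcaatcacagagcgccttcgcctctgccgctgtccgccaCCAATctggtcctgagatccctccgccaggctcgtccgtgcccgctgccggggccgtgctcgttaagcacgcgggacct
Msmo1, chr8:64733529-64733828, minus strand: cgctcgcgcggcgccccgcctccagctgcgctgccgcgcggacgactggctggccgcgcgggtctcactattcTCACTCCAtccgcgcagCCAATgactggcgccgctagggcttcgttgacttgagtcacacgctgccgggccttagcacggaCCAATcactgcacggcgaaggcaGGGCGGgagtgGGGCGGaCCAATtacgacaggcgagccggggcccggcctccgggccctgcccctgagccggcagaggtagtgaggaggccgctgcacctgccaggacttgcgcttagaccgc
Ebp, chrX:8193463-8193762, minus strand: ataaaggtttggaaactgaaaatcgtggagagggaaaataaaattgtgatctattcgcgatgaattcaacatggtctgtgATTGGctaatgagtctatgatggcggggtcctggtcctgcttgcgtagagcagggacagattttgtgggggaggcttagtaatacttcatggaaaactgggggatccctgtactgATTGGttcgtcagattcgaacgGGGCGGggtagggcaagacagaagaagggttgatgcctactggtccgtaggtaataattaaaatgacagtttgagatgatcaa
Scap, chr9:110333106-110333405, plus strand: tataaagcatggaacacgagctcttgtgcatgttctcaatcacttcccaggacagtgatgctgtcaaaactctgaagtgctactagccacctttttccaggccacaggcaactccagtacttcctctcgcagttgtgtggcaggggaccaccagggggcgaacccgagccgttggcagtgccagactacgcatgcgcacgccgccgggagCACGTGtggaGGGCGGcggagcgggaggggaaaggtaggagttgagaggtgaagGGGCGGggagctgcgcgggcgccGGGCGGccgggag
Fasn, chr11:120824498-120824797, minus strand: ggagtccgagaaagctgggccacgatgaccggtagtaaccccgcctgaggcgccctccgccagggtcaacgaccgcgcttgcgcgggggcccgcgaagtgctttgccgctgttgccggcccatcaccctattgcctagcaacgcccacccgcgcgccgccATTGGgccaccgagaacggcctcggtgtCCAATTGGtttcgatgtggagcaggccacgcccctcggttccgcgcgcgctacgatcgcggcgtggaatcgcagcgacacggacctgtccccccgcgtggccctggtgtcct
Cyp51 held CCAAT at 29 bases before the start site and GGGCGG at 135 before it. Msmo1 held the sterol element core at 177 bases before the start, CCAAT at 160, 96 and 55 before it, and GGGCGG at 73 and 62. Ebp held CCAAT on the other strand at 170 and 55 bases before the start. Scap held an E-box at 40 bases before this start site and no CCAAT. Fasn held CCAAT, read on either strand, at 90, 62 and 59 bases before the start, and the last pair overlap in CCAATTGG.

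RefSeq promoters were found for 26 of the 33 members, and Fdps, Fdft1, Sqle, Stard4, Scd1, Scd2 and Fads1 had no entry in the table. CCAAT was present in a promoter of 21 of the 26 members (80.8%), beside 41.1% of the 27025 genes in the table. All 9 sterol-step genes with an entry held it, as did 5 of 6 mevalonate genes, 4 of 5 sensing genes and 3 of 6 lipogenic genes. GGGCGG was present in 21 of 26 (80.8%) beside 38.2% of all genes, with 9 of 9 in the sterol steps and 2 of 6 in the lipogenic branch. The sterol element core was found in Hmgcs1, Msmo1 and Srebf2, 11.5% of the members beside 4.97% of all genes, and CACGTG in 6 members (23.1%) beside 8.09%. The pattern TGATGNAAT, searched as a composite element of CHOP and ATF4, had no match in the 26 members, beside 1.08% of all genes. Its last letter was fixed as T. Stretches with another letter there, such as TGATGCAAA in a promoter of Insig2, were not counted. These are matches of letters in a window of fixed length, and a gene with several start sites had more than 1 window. The shares for all genes were not limited to genes expressed in heart or muscle. The only Acaca window, chr11:84195188-84195487, lies inside the gene, which starts at 84129672 in GENCODE. The start of that gene was therefore not searched.

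**Figure D3:**
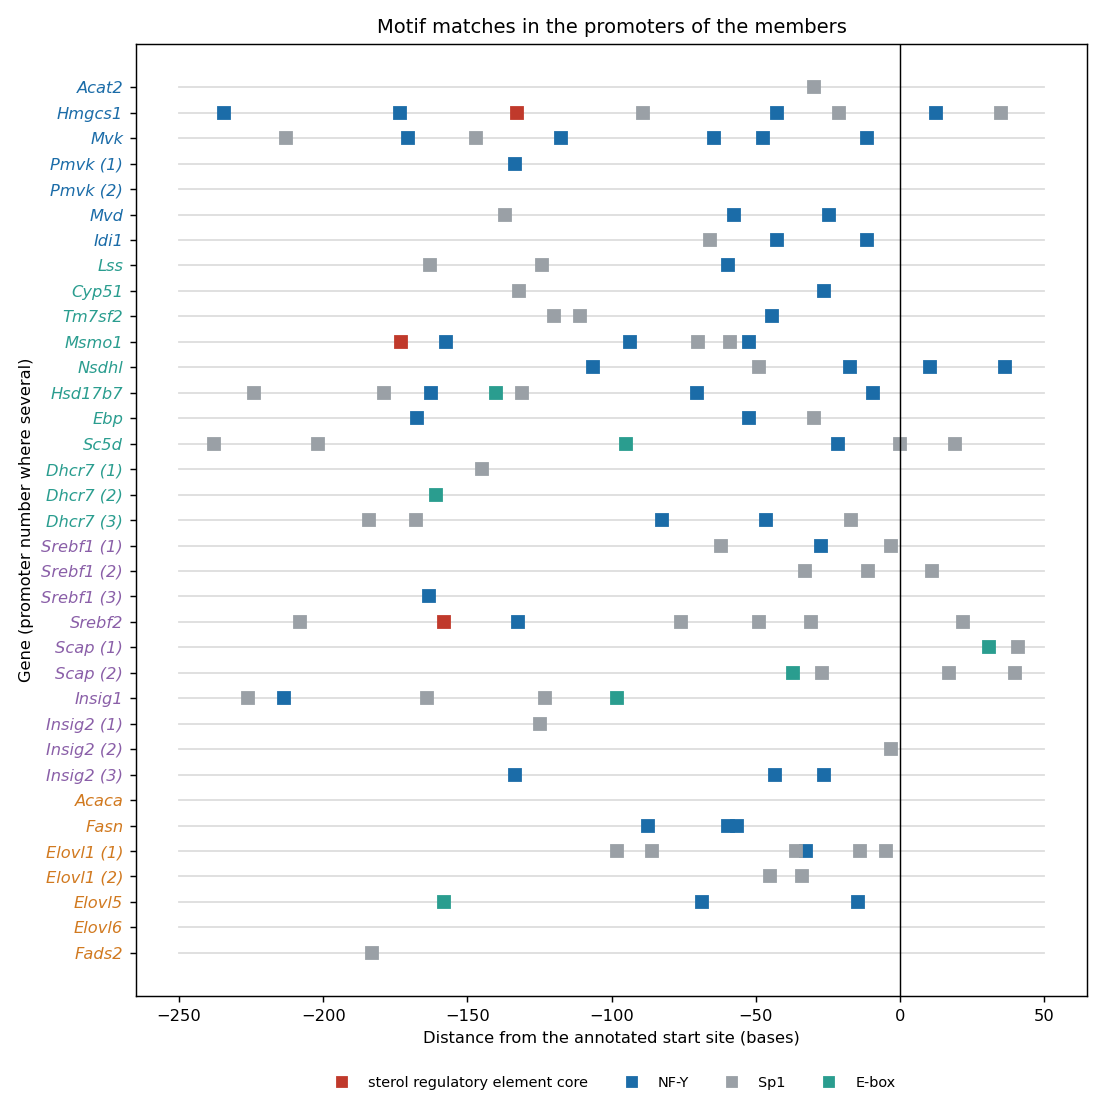
Positions of the sterol regulatory element core, NF-Y, Sp1 and E-box motifs in the RefSeq promoters of 26 members, as distance in bases from the start site, with 1 line per promoter. The 3 matches to the sterol element core are in Hmgcs1, Msmo1 and Srebf2, and every sterol-step gene with an entry has an NF-Y match in at least 1 promoter. The Acaca and Elovl6 windows hold none of the 4 motifs, and that of Acaca lies inside the gene.

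The 7 mevalonate genes held 0 calls in heart, with Mvd and Fdps at an unadjusted p under 0.05, and DESeq2 also called none of them. Mvd, the decarboxylase that makes isopentenyl diphosphate, came closest. It measured 3.32, 3.38, 2.48, 3.33 and 3.54 CPM in WT hearts and 4.85, 4.37, 3.85, 3.64 and 3.95 CPM in Taz-KD hearts. The groups did not overlap, and the log2 fold change was 0.36 (SE 0.13, adjusted p = 0.0550). Hmgcs1, which makes HMG-CoA and was the most abundant of the 7 per length, averaged 34.7 ± 2.74 CPM in WT and 34.9 ± 3.46 in Taz-KD hearts (log2 fold change 0.01, SE 0.08). Acat2, Mvk, Pmvk and Idi1 had log2 fold changes from -0.18 to 0.24 with standard errors of 0.11 to 0.23. Fdps, farnesyl diphosphate synthase, stood at 0.233 in WT and 0.393 CPM in Taz-KD hearts, and 80.4% of the 75-base windows of its transcript also occur in other genes, so its level is uncertain. Acat2 shares 40.7% of its windows with Acat3, a related thiolase gene that rose in Taz-KD hearts from 17.0 ± 2.12 to 25.9 ± 3.24 CPM (log2 fold change 0.61, adjusted p = 0.00120) while Acat2 measured 3.42 ± 0.399 and 3.25 ± 1.46 CPM. Without R1793 the log2 fold change of Acat2 was -0.39 (adjusted p = 0.0564).

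Of the 11 sterol-step genes 3 were called (27.3%, beside 24.6% of all genes in heart), and 10 had a log2 fold change above 0, with a median of 0.27 beside -0.02 for all genes tested. Nsdhl and Hsd17b7, which work with Msmo1 to remove the methyl groups of lanosterol, had log2 fold changes of 0.42 and 0.38 (adjusted p = 0.0872 and 0.0902). Lss, lanosterol synthase, stood at 6.36 ± 1.42 in WT and 7.87 ± 0.569 CPM in Taz-KD (log2 fold change 0.31, adjusted p = 0.132). Sqle, Tm7sf2, Sc5d and Dhcr7 had log2 fold changes between 0.03 and 0.18 with standard errors of 0.06 to 0.17. Fdft1, squalene synthase, was the one with a value below 0. It measured 32.4, 46.9, 34.9, 33.2 and 30.3 CPM in WT hearts and 32.4, 29.8, 25.3, 32.2 and 31.6 CPM in Taz-KD hearts, with R1791 standing above the others (log2 fold change -0.23, SE 0.11, adjusted p = 0.160). Without R1791 it was -0.11 (adjusted p = 0.356). The summed level of the 11 genes ran from 112 to 127 CPM in WT and from 119 to 139 CPM in Taz-KD, and these ranges overlapped.

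Among the sensing and transport genes Scap was the 1 call of 6. The transcription factor genes Srebf1 and Srebf2 stood at 39.4 ± 5.86 and 32.3 ± 4.51 CPM in WT hearts and at 34.2 ± 4.30 and 30.2 ± 3.85 CPM in Taz-KD hearts. Their log2 fold changes were -0.20 (SE 0.11) and -0.10 (SE 0.11), with adjusted p of 0.194 and 0.560. Insig1, which SREBPs themselves activate, had a log2 fold change of 0.19 (SE 0.13, adjusted p = 0.335) and Insig2 of -0.05 (SE 0.07, adjusted p = 0.677). Stard4, a carrier of cholesterol between membranes, stood at 10.3 ± 1.53 in WT and 8.71 ± 0.677 CPM in Taz-KD hearts, with a log2 fold change of -0.24 (unadjusted p = 0.0431, adjusted p = 0.123).

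The 9 lipogenic genes held 0 calls in heart by edgeR, where 2 of them, Acaca and Elovl1, had an unadjusted p under 0.05. DESeq2 called both and limma-voom called Acaca. The median log2 fold change of the 9 was 0.45, beside 0.21 for the 18 mevalonate and sterol genes, and the spread between hearts was wide. Without R1793 the median of the 9 was -0.06, with 3 of 9 above 0, and that of the 18 stayed at 0.21. The median of the 9 was 0.10 by limma-voom, so the order of the branches rests on R1793 and on the test. The coefficient of variation of these genes had a median of 29.4% in WT and 24.1% in Taz-KD hearts, and reached 177% for Elovl6, beside medians of 14.0% and 12.6% for the mevalonate and sterol genes and of 13.3% for all genes tested in either genotype.

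Acaca encodes acetyl-CoA carboxylase, the rate-limiting enzyme of fatty acid synthesis. WT hearts measured 50.4, 32.96, 32.7, 26.8 and 25.6 CPM and Taz-KD hearts 51.4, 131, 53.1, 48.1 and 45.0 CPM. The WT heart R3 lay within the Taz-KD range, the other WT hearts lay below every Taz-KD heart, and R1793 stood far above all. The log2 fold change was 0.96 (SE 0.34, adjusted p = 0.0652). Without R1793 it was 0.55 (adjusted p = 0.0504), and without R3 it was 1.15 (adjusted p = 0.0411). In 47.4% of its windows the transcript matches the gene model Gm5182.

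Fasn, fatty acid synthase, measured 214, 67.2, 71.9, 47.3 and 59.4 CPM in WT hearts and 72.2, 742, 86.9, 120 and 78.3 CPM in Taz-KD hearts. Scd1, the stearoyl-CoA desaturase, measured 194, 54.0, 47.9, 20.1 and 25.5 CPM in WT and 13.8, 381, 22.3, 80.7 and 39.9 CPM in Taz-KD. Elovl6, which elongates palmitate to stearate, measured 4.86, 1.32, 1.83, 1.12 and 1.35 CPM in WT and 1.18, 25.8, 0.699, 2.14 and 1.17 CPM in Taz-KD. The WT heart R3 was the highest of its genotype for all 3 genes and the Taz-KD heart R1793 the highest of all hearts. The log2 fold changes were 1.25 for Fasn, 0.66 for Scd1 and 1.55 for Elovl6, with standard errors of 0.82, 1.03 and 1.09 and adjusted p from 0.312 to 0.697. Without R1793 alone the values fell to -0.04 for Fasn, -0.80 for Scd1 and -0.70 for Elovl6, none called, and without R3 alone they were 1.84, 1.55 and 2.14.

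Elovl1, which makes very long saturated chains, stood apart from this pattern of libraries. It measured 11.9, 7.14, 11.9, 11.6 and 12.1 CPM in WT hearts and 16.1, 16.5, 17.9, 12.5 and 11.6 CPM in Taz-KD hearts. The Taz-KD heart R1798 lay within the WT range and R1797 just above it (log2 fold change 0.45, SE 0.16, adjusted p = 0.0575). Scd2, Elovl5, Fads1 and Fads2 had log2 fold changes from -0.20 to 0.07 with standard errors of 0.08 to 0.21.

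The hearts with high lipogenic transcripts, R1793 and R3, were also high in the fat cell transcripts Adipoq, Plin1 and Ucp1. Adipoq, the gene of the fat cell hormone adiponectin, measured 8.12 CPM in R1793 and 4.80 in R3, then 2.57 in R1797 and 1.45 in R1792, and 0.124 to 0.772 in the other 6 hearts. Plin1, a coat protein of fat droplets, measured 20.9 CPM in R1793 and 12.0 in R3, then 5.90 in R1797, and 0.187 to 3.55 elsewhere. Ucp1, the uncoupling protein of brown fat, measured 52.01 CPM in R1793 and 8.40 in R3, and 0 to 0.126 CPM in the other 8 hearts. Of the 10 fat cell markers 7 passed the filter and none was called, with 5 of the 7 above 0 in log2 fold change. Their summed level ran from 645 to 781 CPM in WT and from 568 to 643 in Taz-KD. In that sum R3 stood at 673 CPM, below the WT hearts R1791 (781), R1792 (754) and R1800 (700). R1793 stood at 635 CPM, below the Taz-KD heart R2 (643). Fabp4 and Plin4, which heart tissue also expresses, make up the most of the sum. In bulk tissue, more cells of a type and more RNA per cell cannot be told apart. The part of fat cells in the lipogenic values was not tested.

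**Figure D4:**
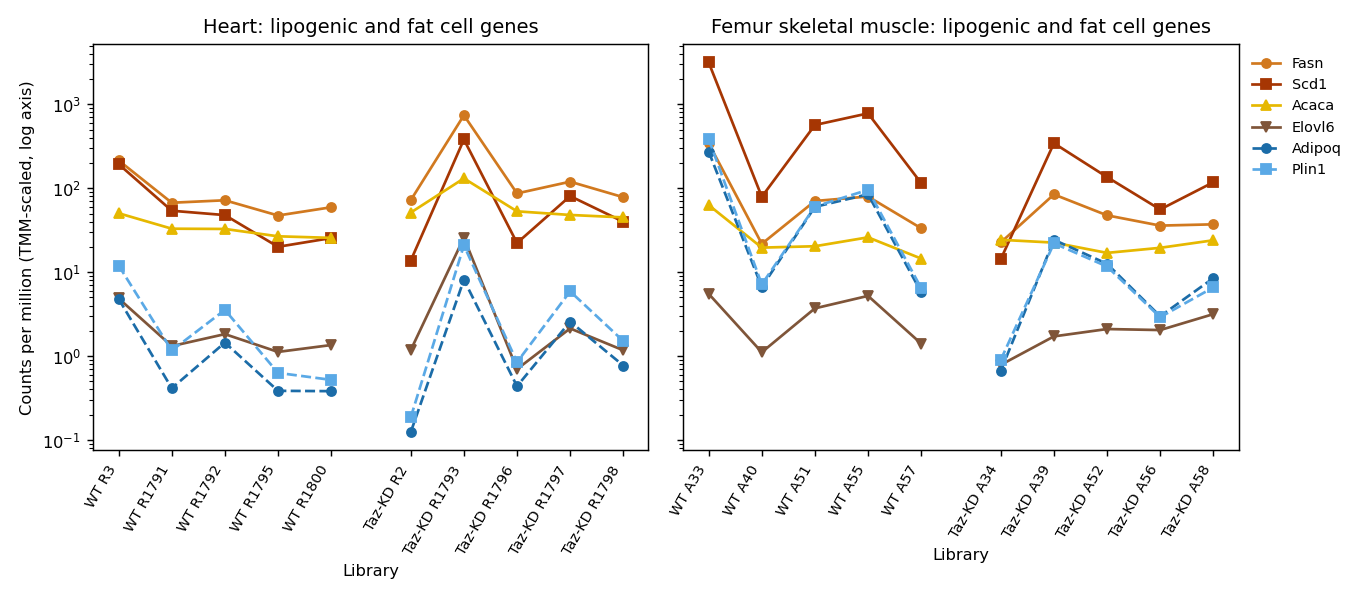
TMM-scaled CPM on a log axis of the lipogenic genes Fasn, Scd1, Acaca and Elovl6 (solid lines) and of the fat cell genes Adipoq and Plin1 (dashed lines) in each library of heart and muscle, with lines that join the libraries of a genotype only to guide the eye. The highest points of Fasn and Adipoq fall in the Taz-KD heart R1793 (742 and 8.12 CPM) and in the WT muscle A33 (343 and 274 CPM).

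The fit was repeated without the libraries highest in 1 fat cell gene, a choice made after the values were seen. That gene was Ucp1 in heart and Adipoq in muscle, and the whole marker list was not used. In heart the libraries left out were R3 and R1793, the 2 with Ucp1 above 1 CPM. They were also the highest of their genotypes for Fasn, Scd1 and Elovl6. Leaving them out changes these values whatever their source, so this fit cannot test the part of fat cells. In the 8 remaining hearts Acaca had a log2 fold change of 0.74 (SE 0.10, adjusted p = 0.000456) and passed the threshold. Fasn stood at 0.54 (SE 0.18, adjusted p = 0.0613), Scd1 at 0.09 (SE 0.61) and Elovl6 at -0.12 (SE 0.31). The members called were Cyp51, Scap and Acaca, whereas Msmo1 (0.43, adjusted p = 0.0650) and Ebp (0.27, adjusted p = 0.0667) no longer passed with values close to those of the 10 hearts.

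Skeletal muscle gave 0 calls among the 33 members by edgeR, DESeq2 or limma-voom, with 4 members at an unadjusted p under 0.05 by edgeR, and 0.0186% of all genes called. No member had genotypes that did not overlap, beside 2.14% of all genes tested. The mevalonate and sterol genes were divided, 9 above and 9 below 0 in log2 fold change, with a median of 0.01 beside -0.02 for all genes. Scap stood at 24.7 ± 1.84 in WT and 24.1 ± 2.52 CPM in Taz-KD (log2 fold change -0.04, SE 0.09), Cyp51 at 4.98 ± 1.24 and 4.59 ± 0.458, Msmo1 at 5.15 ± 1.69 and 4.25 ± 0.483, and Ebp at 6.94 ± 2.06 and 6.35 ± 1.02.

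Fdft1 measured 73.4, 83.9, 74.7, 64.7 and 92.9 CPM in WT muscle and 92.1, 112, 98.5, 92.8 and 88.9 CPM in Taz-KD muscle. One WT muscle, A57, lay within the Taz-KD range and the others below it (log2 fold change 0.31, SE 0.11, unadjusted p = 0.0187, adjusted p = 0.311). Exons of Fdft1 share 774 bases with those of Ctsb on the opposite strand. Mvd varied widely, from 6.03 to 27.2 CPM in WT and from 6.75 to 20.9 in Taz-KD. Srebf1, which stood at 67.5 ± 25.8 in WT and 87.4 ± 20.97 CPM in Taz-KD, had a log2 fold change of 0.37 (SE 0.27), and Insig1 one of -0.37 (SE 0.26).

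All 9 lipogenic genes lay below 0 in muscle, with a median log2 fold change of -0.50, and none passed the test. Scd1 measured 3158, 79.2, 568, 781 and 115 CPM in WT muscle and 14.3, 344, 136, 55.9 and 118 CPM in Taz-KD muscle. The groups overlapped, with A33 standing far above all others (log2 fold change -2.81, SE 1.06, unadjusted p = 0.0228, adjusted p = 0.311). Fasn measured 343, 21.8, 70.5, 79.7 and 33.4 CPM in WT and 22.6, 84.4, 47.6, 35.9 and 37.2 CPM in Taz-KD (log2 fold change -1.27, SE 0.68). Without A33 alone the values were -1.52 for Scd1, -0.17 for Fasn and 0.09 for Acaca, and the median of the 9 was -0.38. Elovl5, an elongase of polyunsaturated fatty acids, and Fads1, a desaturase of the same route, had log2 fold changes of -0.50 (SE 0.18) and -0.79 (SE 0.31), both with an unadjusted p under 0.05. The remaining 5 ran from -0.79 for Elovl6 to -0.22 for Scd2.

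Fat cell markers lay on the same side of 0 in muscle. Adipoq measured 274, 6.65, 60.04, 84.8 and 5.78 CPM in WT muscle and 0.668, 24.3, 12.6, 2.98 and 8.48 CPM in Taz-KD muscle. The WT muscles A33, A55 and A51 were the highest, as they were for Scd1, and the Taz-KD muscle A39 was the highest of its genotype for Adipoq, Fasn and Scd1. All 9 fat cell markers tested lay below 0, with a median log2 fold change of -2.62, and none was called. Their summed level ran from 3435 to 8645 CPM in WT and from 2622 to 4569 CPM in Taz-KD, to which Car3, also a muscle gene, contributed 1441 to 4094 CPM.

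Without A33, A51 and A55, the 3 muscles with Adipoq above 50 CPM, most lipogenic genes lay on the other side of 0. All 3 are WT, and they held the highest WT values of Scd1 and Fasn. Leaving them out raises Taz-KD over WT for both genes whatever the source of the transcripts. This choice of libraries therefore cannot test the part of fat cells. In the 7 remaining muscles 8 of the 9 had a log2 fold change above 0, with a median of 0.33 and none called or under an unadjusted p of 0.05. Scd1 stood at 0.47 (SE 1.06), Fasn at 0.73 (SE 0.51) and Acaca at 0.33 (SE 0.17), each with an adjusted p of 0.998. This fit rests on 2 WT and 5 Taz-KD muscles.

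**Figure D5:**
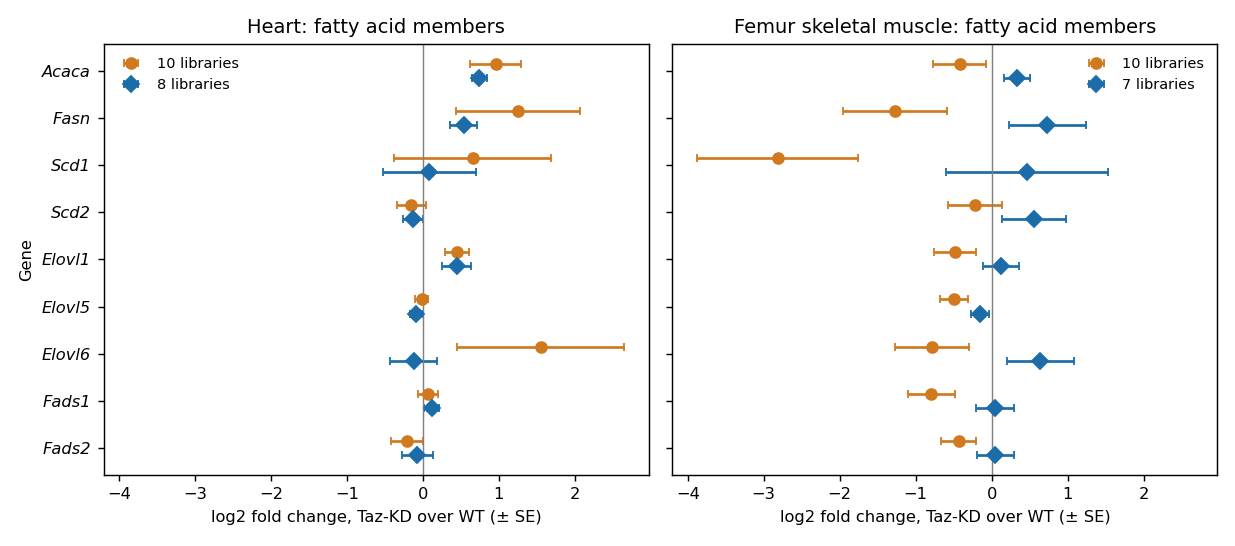
Log2 fold change of Taz-KD over WT with its standard error for the 9 fatty acid members, over all 10 libraries of a tissue (circles). Diamonds give the fit without the hearts highest in Ucp1 or the muscles highest in Adipoq, with 8 hearts or 7 muscles left. Acaca stays above 0 in heart with a smaller error, and in muscle 8 of the 9 genes lie below 0 over 10 libraries and above 0 over 7.

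Whether the genotypes differed more in one tissue than in the other was tested as an interaction over all 20 libraries. It was called for 952 of 20612 genes, 4.62%, and for 1 member. Scap had an effect lower by 0.50 on the log2 scale in muscle than in heart (SE 0.12, adjusted p = 0.0180). It was called with DESeq2 and limma-voom and whenever 1 library was left out, with adjusted p between 0.00161 and 0.0422. Without the 5 libraries highest in Ucp1 (hearts) or in Adipoq (muscles) it was not called. There the difference was -0.44 (adjusted p = 0.154) and 408 genes were called. The gene 5830462I19Rik, whose exons overlap those of Scap, stood at 9.19 CPM in WT and 12.6 in Taz-KD hearts. In muscle it stood at 0.0415 and 0.0809 CPM. Its part in the Scap difference was not tested. Fdft1 had the next smallest adjusted p (0.61 higher in muscle, adjusted p = 0.0602), and DESeq2 called it. For the lipogenic genes the differences were large but uncertain, at -2.38 for Fasn, -3.33 for Scd1 and -1.28 for Acaca, with adjusted p of 0.205, 0.207 and 0.127. The tissues may also differ in how libraries were made, since the small nuclear RNA Rn7sk, which is not polyadenylated, stood at 8932 CPM on average in hearts of WT mice and at 0.281 CPM in their muscle counterparts.

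Levels were also ordered per kilobase of exon within each tissue, in WT mice. The length was the union of all annotated exons, which for some genes is far above that of 1 transcript. It was 10787 bases for Lss and 6144 for Msmo1, whose longest coding transcripts have 4667 and 2044. The order therefore depends on this choice of length, and the place of Fdps also on its shared sequence (80.4% of windows). In heart Scd1 had the highest mean (13.9 ± 14.6 CPM per kb), followed by Insig2 (10.7 ± 0.896), Fdft1 (8.41 ± 1.55) and Fasn (8.41 ± 6.30), and these neighbours did not differ beyond their spread. Lowest were Fdps (0.0555 ± 0.0217), Elovl6 (0.326 ± 0.244), Tm7sf2 (0.533 ± 0.0800) and Sqle (0.545 ± 0.0645). In muscle Scd1 again led, at 192 ± 261 CPM per kb with an SD above its mean, before Fdft1 (18.4 ± 2.55), Insig2 (15.1 ± 2.67) and Srebf1 (12.0 ± 4.58). Fdps (0.0775 ± 0.0244), Lss (0.522 ± 0.0300), Elovl6 (0.527 ± 0.321) and Sqle (0.573 ± 0.132) were lowest there. The 3 sterol enzymes that rose in Taz-KD hearts were of middle to low level in WT heart, Ebp at 2.995, Cyp51 at 2.68 and Msmo1 at 0.820 CPM per kb.

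The genes around these pathways were described in heart as 6 lists, whose counts stand beside the 24.6% of all genes called there. Of the genes tested, 26.7% were called for isoprenoid use, 27.8% for sterol handling, 33.3% for acetyl-CoA, malonyl-CoA and NADPH supply, 35.7% for glycerolipid assembly, and 50% for each of SREBP processing and other elongation and desaturation. The shares for isoprenoid use and sterol handling lay near that of all genes, and no test compared the lists with it. Of 10 genes of SREBP processing and turnover tested, 4 were higher and 1 lower in Taz-KD hearts. Mbtps2, a protease that releases SREBPs in the Golgi, rose by 0.31 on the log2 scale (adjusted p = 0.00228), and Ube2g2, a ubiquitin-conjugating enzyme of the endoplasmic reticulum, by 0.36 (adjusted p = 0.00373).

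Of 14 other elongation and desaturation genes 7 were higher and none lower. Fads3, a desaturase of sphingoid bases, rose from 59.2 ± 4.59 to 120 ± 16.5 CPM (log2 fold change 1.02, adjusted p = 8.49e-06), Fads6 from 4.21 ± 0.730 to 10.3 ± 1.18 CPM (1.28, adjusted p = 2.24e-05), and Cyb5b, an electron carrier of the outer mitochondrial membrane, from 65.4 ± 2.32 to 99.3 ± 9.79 CPM (0.60, adjusted p = 5.50e-05). For Fads3 the WT heart R3, at 53.9 CPM, was the lowest of all hearts, and the Taz-KD hearts ran from 98.3 to 144 CPM.

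Of 12 genes that supply acetyl-CoA, malonyl-CoA or NADPH, 2 were higher and 2 lower. Mlxipl, which encodes the carbohydrate-responsive transcription factor ChREBP that acts beside SREBPs on lipogenic genes, fell from 41.8 ± 5.501 to 18.4 ± 2.06 CPM (log2 fold change -1.19, adjusted p = 6.64e-06). Me1 and Pgd, both sources of NADPH, rose by 0.46 and 0.43 on the log2 scale (adjusted p = 0.000523 and 0.0147).

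Of 18 genes of sterol uptake, efflux and esters 4 were higher and 1 lower. Tmem97, a sterol-responsive membrane protein, rose from 3.44 ± 0.448 to 6.42 ± 0.737 CPM (log2 fold change 0.90, adjusted p = 0.000195), Cyp27a1, the mitochondrial sterol hydroxylase, from 19.1 ± 3.57 to 34.5 ± 4.01 CPM (0.85, adjusted p = 0.000502), and Osbpl2, an oxysterol-binding protein, by 0.24 (adjusted p = 0.0142). Of 15 genes of isoprenoid use 3 were higher and 1 lower, among them Rabggtb, a subunit of Rab geranylgeranyl transferase (0.44, adjusted p = 0.00188), Pggt1b, a subunit of another prenyl transferase (-0.28, adjusted p = 0.00288), and Dhdds, an enzyme of dolichol synthesis (0.31, adjusted p = 0.00783).

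Of 14 genes of glycerolipid assembly 2 were higher and 3 lower. Lpin1, the phosphatidate phosphatase, fell from 255 ± 31.3 to 143 ± 7.96 CPM (log2 fold change -0.83, adjusted p = 2.06e-05), Acsl1, which activates fatty acids, fell from 866 ± 78.9 to 595 ± 63.5 CPM (-0.54, adjusted p = 0.000886), and Gpat3 rose by 0.74 (adjusted p = 0.00217). In muscle none of the genes in these 6 lists was called. The interaction with tissue was called for Mlxipl, Pgd, Fads3, Fads6 and Lpin1.

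Markers of other cell types were also followed in heart, where 14.4% of all genes tested were called higher and 10.3% lower. No test compared the marker counts with these shares. Of 6 endothelial markers 3 were lower, with a summed level of 812 to 986 CPM in WT and 675 to 756 in Taz-KD. Of 5 red blood cell markers 3 were lower (421 to 741 and 289 to 457 CPM). Acta1 was the 1 of 5 skeletal fibre markers called, higher in Taz-KD, and Mal the 1 of 6 myelin markers called, also higher. None of the 8 macrophage, 6 fibroblast or 7 cardiomyocyte markers was called, with summed levels of 266 to 390, 998 to 2181 and 36262 to 49181 CPM in WT and 242 to 280, 803 to 1457 and 35682 to 49291 CPM in Taz-KD. In muscle no marker of any list was called, and 8 of 8 macrophage, 8 of 8 myelin, 6 of 6 endothelial and 5 of 6 fibroblast markers lay below 0 in log2 fold change, while 7 of 8 skeletal fibre markers lay above it. In heart 8 of 8 macrophage, 6 of 6 endothelial, 6 of 6 fibroblast and 5 of 5 red blood cell markers lay below 0. The part of these cell types in the members' values was not tested.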

How the data were processed

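The deposited values are raw read counts per gene for 10 heart and 10 muscle libraries. As the authors describe it, total RNA was isolated, ribosomal RNA was depleted, and strand-specific libraries were prepared and sequenced as 150 bp paired ends. One description covers both tissues, although Rn7sk stood at 8932 CPM in WT hearts and at 0.281 CPM in WT muscle. Reads were aligned to GRCm38 by STAR with its defaults and counted by featureCounts 1.6.4. Not given in the sources used here are the strand setting of that counting, the handling of multimapping reads and the annotation release. Symbols, positions and exon lengths came from GENCODE M21, and promoters from RefSeq (GRCm38.p6). The counts of each tissue were fitted in edgeR 4.0.16 (R 4.3.3) after filterByExpr, with TMM factors and a robust quasi-likelihood test of the genotype, Benjamini-Hochberg adjusted over all genes at 0.05. The standard error was derived from the F statistic. The script was tested on simulated data. DESeq2 1.42.0, limma 3.58.1 (voom), other scalings and filters, and leaving out libraries were the alternatives. All 33 members are named, with values in every library for those called. From the other lists up to 3 genes with the smallest adjusted p were named. Members and lists were chosen with earlier results of these data known, and some genes of these pathways are not reported here. Each library has an animal number of its own, so p-values measure the spread between mice.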

Additional observations from a re-analysis of the deposited data

Results flagged for a closer look

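The genotype effect of Scap differed between the tissues by -0.50 on the log2 scale, muscle minus heart, by the test of the interaction. Without the hearts highest in Ucp1 and the muscles highest in Adipoq it was not called (-0.44, adjusted p = 0.154). The part of the overlapping gene 5830462I19Rik, which was near 0 CPM in muscle, was not tested.

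Each member and Taz was examined in the 4 groups of 5 libraries for a library that stood apart. A value was flagged when its gap to the nearest neighbour, divided by the range of the group, exceeded Dixon's 95% limit. This gave 21 flags in 136 groups of values, and chance alone gives about 1 in 20 groups. R1793 held 5 of the flags, A33 4 and R3 3. Flags of several genes in 1 library are not independent, so their number cannot be weighed against that rate. In hearts the Taz-KD library R1793 was the highest of its group for Acat2 (5.83 CPM), Acaca (131), Fasn (742), Scd1 (381) and Elovl6 (25.8), and the WT library R3 for Fasn (214), Scd1 (194) and Elovl6 (4.86). In muscle the WT library A33 was the highest for Acat2 (13.6 CPM), Acaca (63.0), Fasn (343) and Scd1 (3158). These 3 libraries were also the highest of their groups in Adipoq, at 8.12, 4.80 and 274 CPM, and the part of fat cells in the flagged values was not tested.

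The other flagged values followed no such pattern, although the heart R1791 and the muscle A58 each held 2 of them. In hearts they were Mvd in WT R1792 (2.48 CPM, lowest), Fdft1 in WT R1791 (46.9, highest), Tm7sf2 in Taz-KD R1797 (3.77, highest), Hsd17b7 in Taz-KD R1796 (22.7, lowest), Dhcr7 in WT R1800 (9.02, highest) and Elovl1 in WT R1791 (7.14, lowest). In muscle they were Idi1 in WT A55 (1.99 CPM, lowest), Msmo1 in Taz-KD A58 (5.10, highest) and Taz in Taz-KD A58 (15.2, highest).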

How the results depend on the processing

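In heart Scap was called under all 19 alternatives and Cyp51 under 17, Msmo1 under 10 and Ebp under 8, always higher in Taz-KD. Upper-quartile factors called 3 members, without Ebp, and split the called genes 2445 higher and 2511 lower. The fatty acid members called rose from 0 to 2 with DESeq2 and to 1 with limma-voom, without R2 and R3 together, and without the hearts highest in Ucp1. In that last fit 1 mevalonate or sterol member was called. One fit of all 20 libraries, in which both tissues share an estimate of the spread, called 2087 genes in heart with 0 mevalonate or sterol members, and 167 genes in muscle. The cause of these changes was not tested. DESeq2 called 160 genes in muscle, 36 higher and 124 lower, and by the interaction 1606 genes with 2 members among them. The interaction without the hearts highest in Ucp1 and the muscles highest in Adipoq called 0 members. Leaving out 1 library at a time gave 3930 to 4616 genes called in heart and 3 to 5 in muscle, 1 to 4 mevalonate and sterol members and 0 to 1 fatty acid members in heart, and 1 to 5 members by the interaction, where 5 came without A57 (2042 genes called). Library sizes alone moved the median of all genes in muscle to -0.16 on the log2 scale. No member was called in muscle under any of 18 alternatives. No paired analysis was run, because the libraries carry animal numbers that no 2 groups share. In muscle every WT number is adjacent to a Taz-KD number, and in heart some are. No source used here says that adjacent numbers mark a shared litter or batch, and a fit by such pairs was not tried.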
